A study of Mus musculus with 6 samples.

Results

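The subject is the set of nuclear genes that encode the mitochondrial respiratory chain and ATP synthase, measured by single-cell RNA sequencing of mouse dorsal skin. Members were chosen by name: every gene of the deposited count tables whose symbol begins with Nduf, Uqcr, Sdh, Atp5 or with Cox4, Cox5, Cox6, Cox7 or Cox8, leaving out the genes of the mitochondrial genome, whose symbols begin with mt-. This gave 97 of 31053 listed genes: 36 subunits of complex I and 8 of its assembly factors, 4 subunits of complex II and 4 of its assembly factors, 8 subunits of complex III, 20 of complex IV, 16 of complex V and Atp5s, coupling factor B. Ndufa4 and Ndufa4l2 were counted with complex IV in spite of their names. Of the 97 members, 4 had fewer than 100 UMIs in all libraries together: Cox8b with 73, Cox7b2 with 4, Cox8c with 1, and 1 of the 2 entries named Atp5o with 1. The 2 Atp5o entries overlap on chromosome 16, so the split of reads between them is uncertain, and Atp5o below stands for the entry that held the other 208445 UMIs.

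Complex I takes electrons from NADH and complex II from succinate, complex III passes them from ubiquinol to cytochrome c, and complex IV passes them to oxygen. The proton gradient built by complexes I, III and IV drives complex V, the ATP synthase. Complexes I, III, IV and V are mosaics of proteins encoded in the nucleus and in the mitochondrial genome, whereas every subunit of complex II is nuclear, and several complex IV subunits exist as alternative isoforms that differ between tissues.

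The study asked how SHP099, which inhibits the phosphatase SHP2 allosterically, alters the psoriasis-like inflammation that imiquimod, a TLR7 agonist, raises in mouse skin. Female C57BL/6 mice aged 8 to 10 weeks were left untreated (Sham), received 62.5 mg a day of 5% imiquimod cream on the shaved back for 4 days (IMQ), or received the cream and 10 mg/kg of SHP099 by gavage daily for the same 4 days (IMQ+SHP099). Each group held 2 libraries of unsorted cells, and each library pooled several mice, so n = 2 throughout and the spread given is that between pools. A single value compared between groups of 2 cannot fall below a two-sided exact permutation p of 0.333, so such values are given without a test, and tests come from edgeR fits across all genes.

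Of 55201 barcodes, 50850 passed the filters. The libraries held 53913865 to 188283327 UMIs, with a median of 5645 to 18263.5 UMIs a cell, and any pair of libraries shared 12 to 30 barcodes. Cells were put into 11 classes by summed marker genes, none of them a member, and 3.38% to 8.73% of a library's cells stayed in no class. In every class all of its own markers were at least 2-fold higher than in the other cells, and no marker of another class was among its 10 leading genes. The gate used these same markers, so this is no independent check of the classes. UMIs were then summed per class and library, and a level below is UMIs per 1000000 UMIs of that class in that library (CPM). The 6 classes tested were keratinocytes (447 to 6175 cells a library), fibroblasts, endothelial cells, mural cells, mononuclear phagocytes and T cells. Mural cells stand here for pericytes and smooth muscle together, and smooth muscle of vessels was not told apart from other smooth muscle. Sham replicate 2 stood apart: its mt- share was the highest in each of these classes, and in keratinocytes its TMM factor, edgeR's scaling between libraries, was 1.38 where the other libraries had 0.791 to 0.998.

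The clearest difference between groups was in keratinocytes, the epithelial cells of epidermis and hair follicle. Their members summed to 22888 and 21650 CPM in the Sham libraries, to 31493 and 32831 after IMQ, and to 34474 and 31750 after IMQ+SHP099. The group means were 22269 ± 875 for Sham, 32162 ± 946 for IMQ and 33112 ± 1926 for IMQ+SHP099 (SD, n = 2). Both treated groups lay above both Sham libraries, and the 2 treated groups overlapped. With the TMM factors used in the tests, the Sham libraries stood farther apart, replicate 1 at 23077 against 15722 for replicate 2. The IMQ sums were then 33805 and 32884, whereas those of IMQ+SHP099 spread from 31893 to 43588. Sham and treated libraries again did not overlap. In plain CPM, basal keratinocytes, the dividing layer, gave 23102 and 22126 in Sham against 34878 and 37034 in IMQ. Suprabasal keratinocytes, the differentiating layers, gave 22298 and 20645 against 28299 and 28900.

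**Figure D1:**
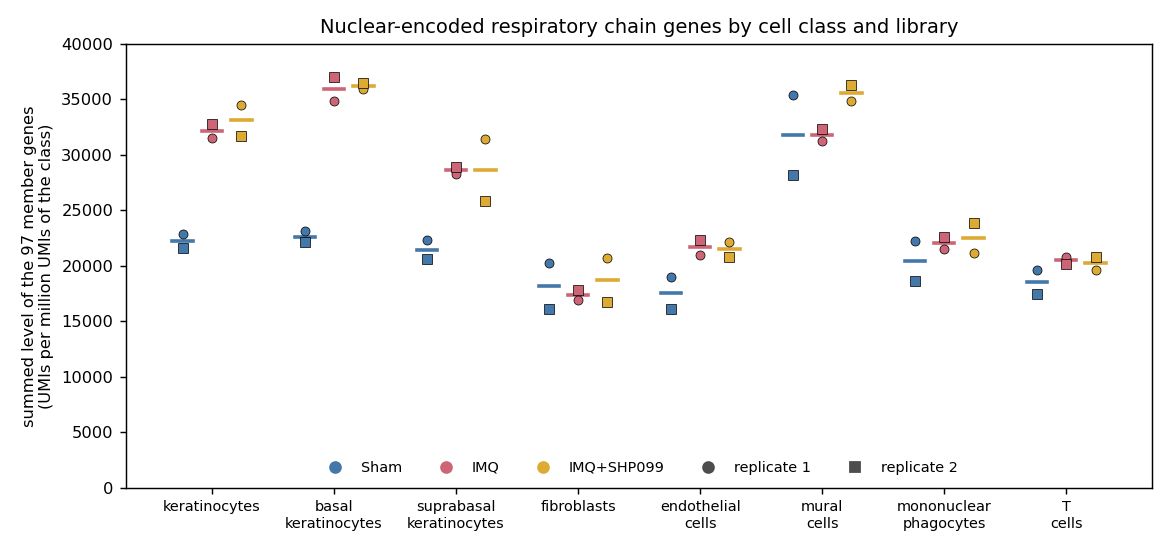
Summed level of the 97 members (vertical axis, CPM within the class, from 0) in each class (horizontal axis), with a point for each library and a line at each group mean. In keratinocytes and both of their layers every IMQ and IMQ+SHP099 library lies above both Sham libraries, whereas in fibroblasts, mural cells and mononuclear phagocytes IMQ and Sham overlap.

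In the other classes the sums lay closer together. Fibroblasts held 20266 and 16085 CPM in Sham, then 16884 and 17786 with IMQ and 20710 and 16709 with IMQ+SHP099, which overlapped. Endothelial cells held 18992 and 16131, then 21010 and 22323, then 22160 and 20843, with both treated groups above Sham. T cells held 19631 and 17449, then 20840 and 20182, then 19599 and 20841. Mononuclear phagocytes gave 22273 and 18670 in Sham, overlapping with 21564 and 22639 in IMQ. Mural cells gave 35427 and 28201 in Sham, which lay on either side of the 31243 and 32366 in IMQ, while the IMQ+SHP099 pair, at 34904 and 36290, lay above IMQ. Fibroblast markers summed to 1356 to 4547 CPM in the mural libraries, and their part in the mural values was not tested. Nor was the part of the mix of pericytes and smooth muscle.

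Each complex of the keratinocyte chain summed higher in both IMQ libraries than in both Sham libraries. Complex I subunits summed to 6160 and 5943 in Sham and to 7940 and 8371 in IMQ, a log2 ratio of the means of 0.43. The ratio was 0.54 for complex II, 0.60 for complex III, 0.58 for complex IV and 0.55 for complex V. Assembly factors of complex I gave 0.32 and those of complex II 0.15. None of these sums was tested, because the members were chosen with earlier results known.

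Gene by gene, 8 of the 92 members tested in keratinocytes were higher in IMQ than in Sham at an adjusted p under 0.05 (edgeR quasi-likelihood test, Benjamini-Hochberg over 14332 genes) and none was lower, where 5.46% of all genes tested were called higher and 7.7% lower. The share of members called higher was thus near that of all genes. By role, the 8 were 2 of 36 complex I subunits, 1 of 8 complex I assembly factors, 1 of 4 complex II subunits, 1 of 8 complex III subunits, 1 of 16 complex IV subunits and 2 of 15 complex V subunits. The fitted change was above 0 for 86 of the 92 members, against 45.9% of all genes. An unadjusted p under 0.05 was reached by 49 of 92 members, against 30.5% of all genes. The median fitted log2 change was 0.73 over the members and -0.08 over all genes. In plain levels 71 of 92 members were higher in both IMQ libraries than in both Sham libraries, against 18.5% of all genes, and 4 were lower in both, against 42.8%. Without a TMM factor the medians were 0.46 over the members and -0.38 over all genes, with 11 members called higher and 1 lower. The share of all genes called without a TMM factor is not set beside these counts. The same holds below for any count of members called under another method, scaling, filter, set of cells or set of libraries. Such counts are not read as results about the members.

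Ndufa4, a subunit first assigned to complex I and now placed in complex IV (chr6:11900292-11907497, GRCm38), had the largest called change. The Sham libraries had 481 and 399 CPM, the IMQ libraries 1352 and 1229, and the IMQ+SHP099 libraries 1530 and 1355, with no overlap between Sham and the treated libraries. The log2 change from Sham to IMQ was 1.79 ± 0.41 (SE, adjusted p = 0.0270). Cox4i1, the common isoform of the subunit that binds the catalytic core of the same complex, was at 816 and 785 in Sham and 808 and 878 in IMQ, groups that overlapped (log2 change 0.33 ± 0.40, adjusted p = 0.613). Here and below, gene levels are plain CPM, whereas log2 changes are edgeR fits with TMM factors unless stated. The size of a fitted change can therefore differ from the ratio of the levels.

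Sdhd, a membrane anchor of complex II (chr9:50596357-50603812), was at 51.3 and 55.9 in Sham and at 126 and 129 in IMQ, a log2 change of 1.52 ± 0.32 (adjusted p = 0.0218). Both IMQ+SHP099 libraries, at 134 and 97.3, also lay above Sham. The catalytic subunits of the same complex did not pass. Sdha, the flavoprotein, gave 41.4 and 74.9 in Sham and 73.1 and 75.1 in IMQ (log2 change 0.67 ± 0.26, adjusted p = 0.122). Sdhb, the iron-sulfur subunit, gave 96.1 and 105 against 132 and 139 (0.69 ± 0.30, adjusted p = 0.157).

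In complex III the small subunit Uqcrq rose from 346 and 336 to 698 and 722, a log2 change of 1.31 ± 0.33 (adjusted p = 0.0400). Its core proteins did not pass. Uqcrc1 was at 241 and 194 in Sham and 262 and 269 in IMQ (adjusted p = 0.427), and Uqcrfs1, the Rieske iron-sulfur protein, at 193 and 145 against 292 and 280 (adjusted p = 0.140).

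In complex I, the accessory subunit Ndufb7 rose from 77.5 and 138 to 204 and 226, a log2 change of 1.32 ± 0.31 (adjusted p = 0.0305), although its 2 Sham libraries stood well apart. Ndufa5, another accessory subunit, rose from 121 and 119 to 209 and 234 (1.13, adjusted p = 0.0402). The assembly factor Ndufaf5 rose from 4.50 and 6.61 to 8.84 and 8.98 (0.98, adjusted p = 0.0426). The core subunit Ndufv1, which binds NADH, did not pass and was at 88.8 and 92.1 in Sham and 150 in each IMQ library (adjusted p = 0.0914).

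In complex V the gene Atp5g3, 1 of 3 genes for the rotor's c subunit, rose from 254 and 314 to 562 and 560, a log2 change of 1.27 ± 0.30 (adjusted p = 0.0298). The mature c subunit is the same whichever gene encodes it. The other c subunit genes did not pass: Atp5g1 was at 509 and 465 in Sham and 776 and 817 in IMQ (adjusted p = 0.130), and Atp5g2 at 757 and 575 against 785 and 766 (adjusted p = 0.479). Atp5k, a small subunit of the membrane sector, rose from 218 and 270 to 409 and 503 (1.18, adjusted p = 0.0385). The catalytic head subunits Atp5a1 and Atp5b were at 331 and 478 and at 499 and 640 in Sham, against 607 and 625 and 903 and 919 in IMQ (adjusted p = 0.101 and 0.133).

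**Figure D2:**
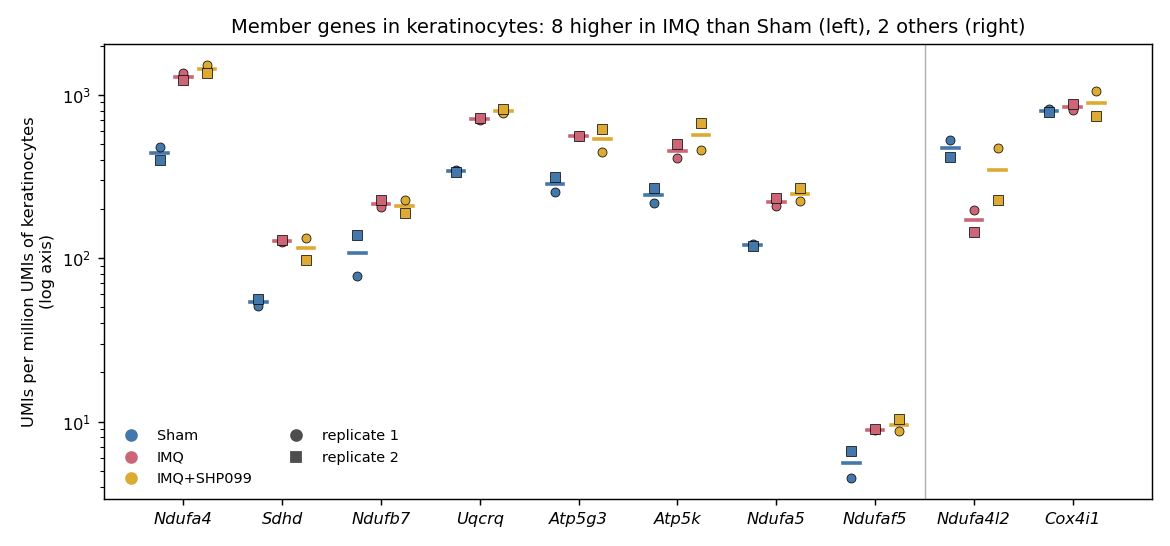
Level in keratinocytes (vertical log axis, CPM) of the 8 members called higher in IMQ than in Sham, and of Ndufa4l2 and Cox4i1 on the right, with a point for each library and a line at each group mean. For the 8 members both IMQ libraries lie above both Sham libraries; Ndufa4l2 lies the other way, and Cox4i1 overlaps.

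Leaving out either IMQ library ended all 8 calls, with 0 members called in each case, while the 8 log2 changes stayed between 0.96 and 1.92. Leaving out Sham replicate 2 raised the adjusted p of Sdhd, Ndufa5 and Atp5k above 0.05 (adjusted p = 0.0510, 0.0661 and 0.0567), and leaving out Sham replicate 1 did the same for Ndufb7 and Ndufaf5 (adjusted p = 0.0637 and 0.0608).

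The only member with a fitted log2 change below -1 in keratinocytes was Ndufa4l2, a paralog of Ndufa4 known as a target of hypoxia-inducible factors (chr10:127514967-127517154). The Sham libraries had 526 and 415 CPM, the IMQ libraries 198 and 145, and the IMQ+SHP099 libraries 472 and 226. Sham and IMQ did not overlap, whereas of the IMQ+SHP099 libraries replicate 1 lay within the Sham range and replicate 2 just above IMQ. The log2 change from Sham to IMQ was -1.22 ± 0.51 and did not pass (adjusted p = 0.149). It passed without a TMM factor (-1.46, adjusted p = 0.0371), and with no filter on low counts (-1.23, adjusted p = 0.0228). From IMQ to IMQ+SHP099 the change was 1.20 ± 0.51, with an unadjusted p of 0.0443 and an adjusted p of 1.

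Keratinocytes also differed between groups in depth and in the share of cycling cells. A Sham keratinocyte had a median of 9927 or 15168 UMIs by library, an IMQ keratinocyte 35005 or 31795, and an IMQ+SHP099 keratinocyte 25785 or 22033. Among keratinocytes of 20000 to 40000 UMIs, the members summed to 22772 and 22060 CPM in Sham against 32128 and 34425 after IMQ and 34634 and 31787 after IMQ+SHP099. Above 40000 UMIs, Sham gave 23293 and 20932, IMQ 31454 and 31228, and IMQ+SHP099 34813 and 34512. At 10000 to 20000 UMIs the treated groups lay above Sham by less, with 23179 and 21468 for Sham, 27404 and 31246 for IMQ, and 33703 and 29055 for IMQ+SHP099. At 5000 to 10000 UMIs, where only 29 and 33 IMQ keratinocytes fell, IMQ at 21692 and 27206 overlapped with Sham at 23000 and 21208. The part of depth in the difference was not tested. Cells with UMIs of at least 2 of 6 cell cycle markers made up 9.38% and 20.2% of Sham, 42.0% and 39.1% of IMQ, and 53.1% and 29.1% of IMQ+SHP099 keratinocytes. Among cells of at least 5000 UMIs, each thinned to 5000, the shares were 6.48% and 13.9%, 23.0% and 23.8%, and 34.4% and 19.4% in the same order. Shallower keratinocytes were left out of the thinned shares, 925 of 6175 and 79 of 1797 in Sham, 75 of 1307 and 45 of 811 in IMQ, and 262 of 5486 and 45 of 447 in IMQ+SHP099. In all keratinocytes without the cycling ones the members summed to 22363 and 20847 CPM in Sham against 28665 and 29588 after IMQ and 31898 and 28281 after IMQ+SHP099. Sham and the treated groups thus still did not overlap without cycling cells, with a log2 ratio of 0.43 between IMQ and Sham in place of 0.53. Of the 8 called members, Sdhd, Ndufa5 and Ndufaf5 no longer passed without cycling cells (adjusted p = 0.0571, 0.0504 and 0.146), while the count of members called was again 8.

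Within the epidermis, 15 of 90 members tested in basal keratinocytes were called higher in IMQ, where 6.36% of all genes were, and 2 of 92 in suprabasal keratinocytes, where 7.0% of all genes were (edgeR). No member was called lower in either layer, where 7.06% and 6.83% of all genes were. In basal cells Ndufa4 had a log2 change of 1.89 ± 0.35, Sdhd of 1.73 ± 0.28, Ndufb7 of 1.68 ± 0.31, Uqcrq of 1.36 ± 0.34 and Ndufa5 of 1.26 ± 0.30. The 2 members called in suprabasal cells were Sdhd (1.44 ± 0.36) and Atp5g3 (1.43 ± 0.31). With cycling cells left out, 3 members were called in basal keratinocytes. Whether the change differed between the layers was not tested.

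In the other 5 classes no member was called between IMQ and Sham by edgeR. The share of all genes called there was 0.126% in fibroblasts, 0.138% in endothelial cells, 0.486% in mural cells, 0.0101% in mononuclear phagocytes and 0.0221% in T cells, so few genes of any kind passed. At an unadjusted p under 0.05 stood 4 of 93 members in fibroblasts (13.2% of all genes), 17 of 91 in endothelial cells (15.4%), 8 of 92 in mural cells (17.7%), 5 of 91 in mononuclear phagocytes (7.59%) and 11 of 87 in T cells (14.4%). DESeq2 called 1 member lower in mononuclear phagocytes and 1 lower in T cells, and 0 in the other 3 classes. The median fitted log2 change of the members was 0.02 in fibroblasts, 0.42 in endothelial cells, 0.20 in mural cells, 0.17 in mononuclear phagocytes and 0.35 in T cells, where the medians of all genes lay between -0.05 and -0.00. In endothelial cells 59 of 91 members were higher in plain level without overlap, where 21.0% of all genes were, and 3 lower, where 26.5% were. Their fitted change was above 0 for 84 of 91, against 48.2% of all genes. In T cells 39 of 87 members were higher without overlap (14.8% of all genes) and 7 lower (35.5%), and 82 of 87 had a fitted change above 0 (47.4%). Mononuclear phagocytes had 35 of 91 higher (19.3%), 6 lower (23.1%) and 69 fitted above 0 (47.9%). Mural cells had 25 of 92 higher (16.1%), 13 lower (35.1%) and 76 fitted above 0 (46.2%). Fibroblasts had 14 of 93 higher (15.5%), 11 lower (22.5%) and 50 fitted above 0 (49.5%).

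**Figure D3:**
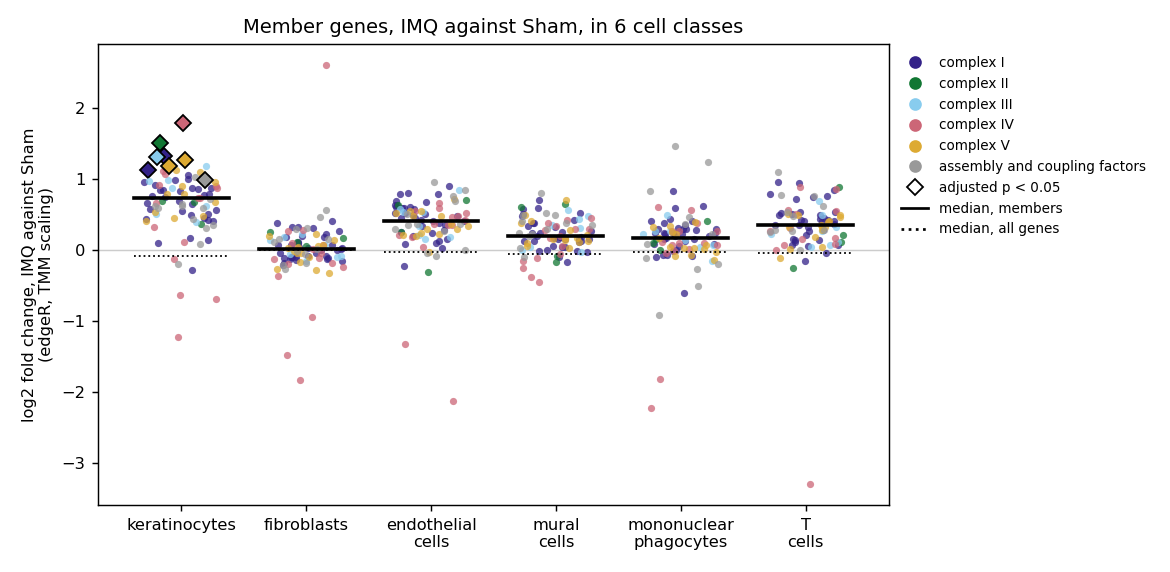
Fitted log2 change from Sham to IMQ (vertical axis, edgeR with TMM scaling) of each member in 6 cell classes, with a point for each gene coloured by complex, diamonds for members with an adjusted p under 0.05, a full line at the median of the members and a dotted line at the median of all genes. The 8 diamonds are all in keratinocytes, where the members' median of 0.73 stands farthest from that of all genes.

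The difference between classes was tested as an interaction, the change from Sham to IMQ in keratinocytes minus its mean over the other 5 classes. By this test 19 of 92 members changed more in keratinocytes and none less (edgeR, adjusted p under 0.05), where 3.22% of all genes passed in the higher direction and 3.63% in the lower. They were Ndufa4 (1.63 ± 0.26, adjusted p = 0.000727), Uqcr10 (1.16 ± 0.19, adjusted p = 0.00123), Sdhd (1.13 ± 0.20, adjusted p = 0.00166), Atp5k, Ndufa5, Uqcrq, Ndufb7, Atp5g3, Atp5o, Uqcr11, Cox6b1, Ndufab1, Atp5j, Cox6c, Atp5b, Cox5b, Atp5a1, Cox7b and Atp5f1. By complex these are 3 of complex I, 1 of complex II, 3 of complex III, 5 of complex IV and 7 of complex V. The count was 14 with cycling cells left out, and 0 when either IMQ library was left out. It was 4 without Sham replicate 1 and 8 without Sham replicate 2.

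The effect of the inhibitor was read from IMQ+SHP099 against IMQ, where no member passed. In this comparison 0 members were called in any of the 6 classes by edgeR and 0 by DESeq2, and the share of all genes called by edgeR was 0% in each class. An unadjusted p under 0.05 was reached by 1 of 92 members in keratinocytes (2.44% of all genes), 1 of 91 in endothelial cells (3.8%), 2 of 87 in T cells (2.23%), and 0 in fibroblasts (1.3%), mural cells (3.06%) and mononuclear phagocytes (1.24%). For the 8 keratinocyte members called above, the log2 change from IMQ to IMQ+SHP099 lay between 0.01 and 0.41. In mural cells 31 of 92 members stood higher without overlap under IMQ+SHP099 than under IMQ, where 11.1% of all genes did, and 8 lower, where 23.0% did. Fibroblasts had 18 of 93 higher (7.26% of all genes) and 7 lower (18.5%). Endothelial cells had 15 of 91 higher (16.3%) and 29 lower (20.1%), and T cells 13 of 87 (22.0%) and 24 (12.7%). Keratinocytes had 14 of 92 higher (9.77%) and 13 lower (21.1%), and mononuclear phagocytes 16 of 91 (8.83%) and 24 (21.5%). Against Sham, a comparison that shares the Sham libraries with that of IMQ, IMQ+SHP099 keratinocytes had 16 of 92 members called higher, where 6.51% of all genes were, led by Ndufa4 (2.09 ± 0.41), Uqcrq (1.60 ± 0.34) and Atp5k (1.59 ± 0.30). Without IMQ+SHP099 replicate 1, which held 5486 of that group's keratinocytes against 447 in replicate 2, the count was 0.

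Some members carry in their promoters a sequence of the type bound by NRF1, a transcription factor known for its sites in respiratory chain genes. In the RefSeq windows from 250 bases before to 50 bases after the start (GRCm38.p6), found for 78 member symbols, the letters GCGCA and GCGC parted by any single base, on either strand, occurred in 20, or 25.6%, against 4.78% of all 27025 promoters. The ETS-type letters CCGGAAG occurred in 25.6% against 9.12%, and the YY1-type letters AAGATGGC in 11.5% against 2.88%. The GC box letters GGGCGG occurred in 47.4% against 35.9%, and the nuclear receptor half-site AAGGTCA in 10.3% against 4.66%. The TATA box letters TATAAA occurred in 10.3% against 14.2%, and the E-box CACGTG in 6.41% against 7.24%. Matches to different motifs may overlap, and a match is a stretch of letters, not a shown site. Of the 8 members called in keratinocytes 7 had a promoter in the table and 5 held the NRF1-type letters, and of the 19 with an interaction 15 had a promoter and 5 held them. The sequences around the match of the 5 called members that hold it are shown in the direction of transcription with the match in capitals. Whether NRF1 has a part in these genes here was not tested.
Sdhd, chr9:50603889-50603958 (minus strand): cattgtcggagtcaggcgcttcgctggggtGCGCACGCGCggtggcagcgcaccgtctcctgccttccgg
Atp5k, chr5:108434410-108434479 (minus strand): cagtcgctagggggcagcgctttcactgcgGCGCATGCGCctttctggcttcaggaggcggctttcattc
Ndufa5, chr6:24527677-24527746 (minus strand): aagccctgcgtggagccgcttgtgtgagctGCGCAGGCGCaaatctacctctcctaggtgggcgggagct
Atp5g3, chr2:73911295-73911324 (minus strand): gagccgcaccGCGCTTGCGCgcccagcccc
Ndufaf5, chr2:140170652-140170681 (plus strand): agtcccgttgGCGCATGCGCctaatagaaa
Counted from the RefSeq start, the first base of the match was at -79 in Sdhd, -50 in Atp5k, -190 in Ndufa5, 13 in Atp5g3 and 17 in Ndufaf5. Over all 26 matches in members, 18 lay wholly before the start and the median first base was at -46.

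Of the 6 tested classes, mural cells and keratinocytes had the highest summed members. Averaged over the 6 libraries, the members summed to 33072 ± 3060 CPM in mural cells, 29181 ± 5470 in keratinocytes, 21704 ± 1759 in mononuclear phagocytes, 20243 ± 2342 in endothelial cells, 19757 ± 1257 in T cells and 18073 ± 1953 in fibroblasts (SD, n = 6). Neighbours in this order lay within their spread of each other except keratinocytes and mononuclear phagocytes, and the spread of keratinocytes includes the gap between Sham and the treated groups. In Sham alone the keratinocyte sums of 22888 and 21650 overlapped with the 22273 and 18670 of mononuclear phagocytes. Neutrophils, with 4 to 332 cells a library and not tested, gave 5863 to 9937.

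Against the mean of the other classes, with the library as a term, 77 of 92 members were called higher and 7 lower in keratinocytes, where 36.1% and 36.4% of all genes were (edgeR). In mural cells the counts were 71 and 2, against 32.2% and 32.6% of all genes. Fibroblasts had 4 higher and 64 lower (35.1% and 25.7% of all genes), endothelial cells 2 and 71 (25.7% and 26.8%) and T cells 2 and 58 (28.7% and 34.0%). Mononuclear phagocytes had 33 higher and 15 lower (29.6% and 33.7%), a split that turned to 14 and 34 without a TMM factor. All 15 complex V subunits and all 8 complex III subunits tested were higher in keratinocytes, and 31 of 36 complex I subunits were higher in each of keratinocytes and mural cells.

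Isoforms set mural cells apart most. Cox4i2, the alternative to Cox4i1 known for its part in oxygen sensing (chr2:152754173-152765037), was at 207 and 167 CPM in Sham mural cells, at 285 and 168 after IMQ and at 253 and 128 after IMQ+SHP099. In the other 5 classes it lay between 0 and 27.6, so no library overlapped (log2 difference 6.73 ± 0.32, adjusted p = 1.3e-17). Ndufa4l2 was at 652 and 370, 643 and 554, and 767 and 519 in mural cells in the same order (4.38 ± 0.21 above the other classes, adjusted p = 2.02e-17). It was also above the other classes in keratinocytes (3.45 ± 0.21) and fibroblasts (1.75 ± 0.22) and below them in endothelial cells, mononuclear phagocytes and T cells. The summed keratinocyte markers stood at 189 to 3124 CPM in fibroblasts and at 146 to 1331 in mural cells, and their part in the Ndufa4l2 levels there was not tested. The common Cox4i1 was between 477 and 1094 in every library of all 6 classes.

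Sdhc, the other membrane anchor of complex II, was at 214 and 201, 154 and 171, and 171 and 152 in mural cells against 28.1 to 84.0 in the other classes (1.43 ± 0.08). The muscle and heart isoforms were low in the 6 tested classes: Cox7a1 reached 18.9 CPM at most, in mural cells, and Cox6a2 reached 4.11, in T cells. Cox8b was at 1.06 or less.

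**Figure D4:**
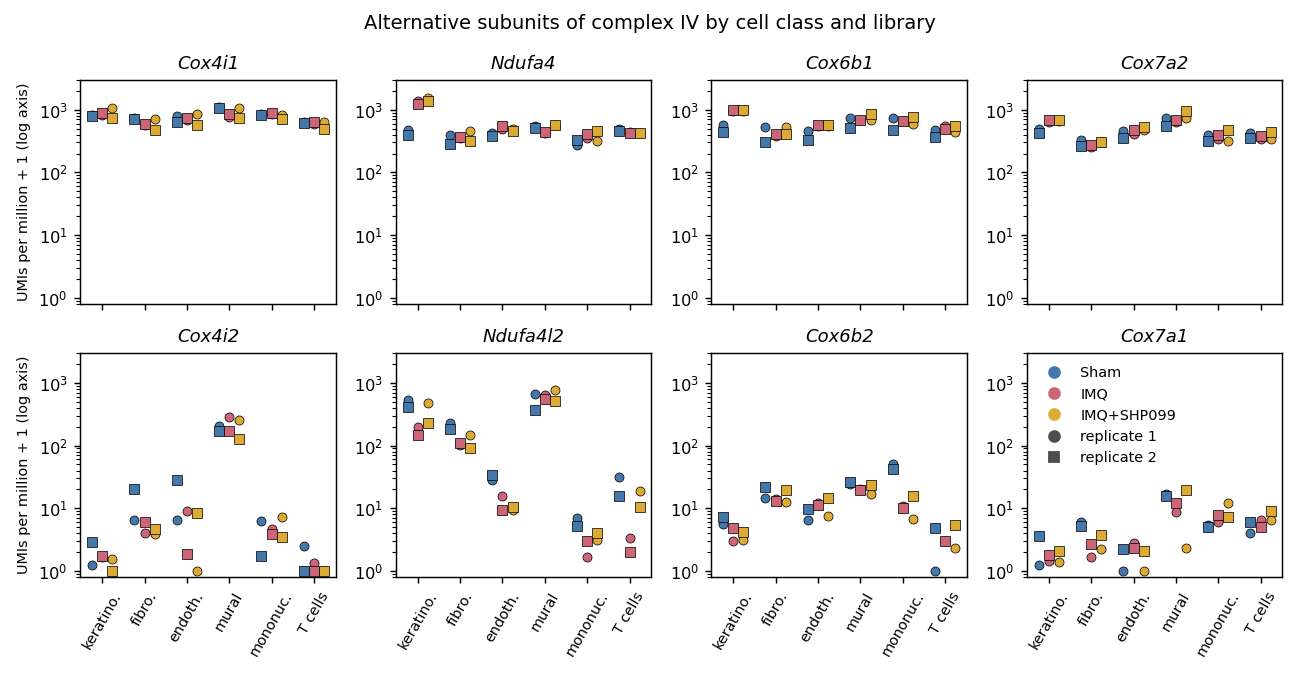
Level of 4 common complex IV genes (top row) and of the alternative gene for each (bottom row) in keratinocytes, fibroblasts, endothelial cells, mural cells, mononuclear phagocytes and T cells, with a point for each library (vertical log axis, CPM plus 1). The common genes lie within about the same band in every class, apart from Ndufa4 in treated keratinocytes, whereas Cox4i2 stands out in mural cells and Ndufa4l2 in mural cells, keratinocytes and fibroblasts.

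Other members marked a class in a single direction in all 6 libraries. Keratinocytes had Ndufa4 (1.57 ± 0.16) and Uqcrc1 (1.45 ± 0.10) above the other classes and Cox4i2 (-3.07 ± 0.79) below. Low Cox4i2 was not particular to keratinocytes, as it was also below the other classes in T cells (-4.60 ± 0.99). In both contrasts the other classes include mural cells, where Cox4i2 was high. The Ndufa4 value averages Sham and treated libraries, and Ndufa4 was far higher in treated than in Sham keratinocytes, as given above. Mononuclear phagocytes had Cox6b2, a testis-type isoform of a small complex IV subunit, above (1.58 ± 0.24), together with Ndufa6 (1.04 ± 0.09) and Cox7a2l, a factor that joins complexes III and IV (0.71 ± 0.09). Fibroblasts had Cox5a (-1.0 ± 0.12) and Uqcrfs1 (-1.0 ± 0.11) below. Endothelial cells had Cox7b below (-1.06 ± 0.12), and T cells had Sdhaf1, an assembly factor of complex II, above (0.94 ± 0.13).

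In some classes plain levels differed between groups without passing over all genes. Cox6b2 in mononuclear phagocytes was at 50.4 and 40.8 CPM (Sham), 10.0 and 8.94 (IMQ) and 5.66 and 14.8 (IMQ+SHP099), with both treated groups below Sham (log2 change from Sham to IMQ -2.23 ± 0.47, unadjusted p = 0.00243, adjusted p = 0.328). Ndufa4l2 in T cells was at 30.6 and 14.5 CPM with Sham, at 2.36 and 1.02 with IMQ, and at 17.8 and 9.63 with IMQ+SHP099 (-3.31 ± 0.68, adjusted p = 0.227). The summed keratinocyte markers in the same T cells were at 2492 and 711, 410 and 225, and 1539 and 245 CPM, so they too were highest in Sham replicate 1 and lowest in IMQ replicate 2. Their part in the Ndufa4l2 values was not tested.

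Between the layers of the epidermis, 13 of 90 members were called higher and 11 lower in suprabasal than in basal keratinocytes, against 27.6% and 27.8% of all genes (edgeR), and without a TMM factor 2 were higher and 55 lower. Sdhd was the clearest, at 61.9 and 73.3 CPM in Sham basal cells, at 197 and 204 after IMQ and at 173 and 154 after IMQ+SHP099. In suprabasal cells it was at 28.8 and 34.2, 69.3 and 65.2, and 68.2 and 38.9 in the same order, below the basal level in every library (log2 difference -1.14 ± 0.12, adjusted p = 0.000107). Sdhaf1 lay the other way, at 17.1 and 17.6, 20.3 and 22.5, and 19.1 and 13.8 in basal cells and at 30.6 and 34.6, 25.3 and 29.5, and 25.7 and 23.8 in suprabasal cells (0.92 ± 0.10, adjusted p = 0.000118). Of the 8 complex I assembly factors, 4 were lower in suprabasal cells and none higher.

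The transcripts of the mitochondrial genome did not order the keratinocyte libraries as the nuclear members did. The mt- genes took 1.60% and 3.97% of Sham keratinocyte UMIs, 1.93% and 2.64% after IMQ, and 1.18% and 1.43% after IMQ+SHP099, so both IMQ libraries lay between the 2 Sham libraries. For each mt- UMI the Sham libraries had 1.43 and 0.545 member UMIs, the IMQ libraries 1.63 and 1.24, and the IMQ+SHP099 libraries 2.93 and 2.23. The last group stood above the other libraries, with the lowest mt- shares and member sums like those of IMQ. None of the 13 mitochondrial mRNAs was called between IMQ and Sham (edgeR, 0 at an unadjusted p under 0.05), and their direction depended on the scaling: the median fitted log2 change was 0.36, whereas the log2 ratio of their plain summed levels was -0.28.

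Over the means of 8 classes, mural cells stood highest (33072 CPM, 4.89%) and neutrophils lowest (7867 CPM, 0.619%) in summed members and mt- share. The 8 were the 6 tested classes, neutrophils and Schwann cells. Pearson's r between the 2 measures was 0.814 over these means, and 0.498 to 0.922 over the 6 tested classes within a library. The 2 measures ordered the other tested classes differently. Keratinocytes held 29181 CPM at an mt- share of 2.13% and mononuclear phagocytes 21704 at 2.14%. Endothelial cells held 20243 at 2.41%, T cells 19757 at 2.58% and fibroblasts 18073 at 1.996%. The part of mural cells and neutrophils in r was not tested. The correlations are descriptions over classes that share libraries. Of the 6 tested classes mural cells had the highest mt- share in every library, 3.75% to 6.07%, and all 13 mitochondrial mRNAs were called higher there than in the other classes. Under a mitochondrial limit of 5% in place of 10% on each cell, 46 members were called higher and 2 lower in mural cells.

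**Figure D5:**
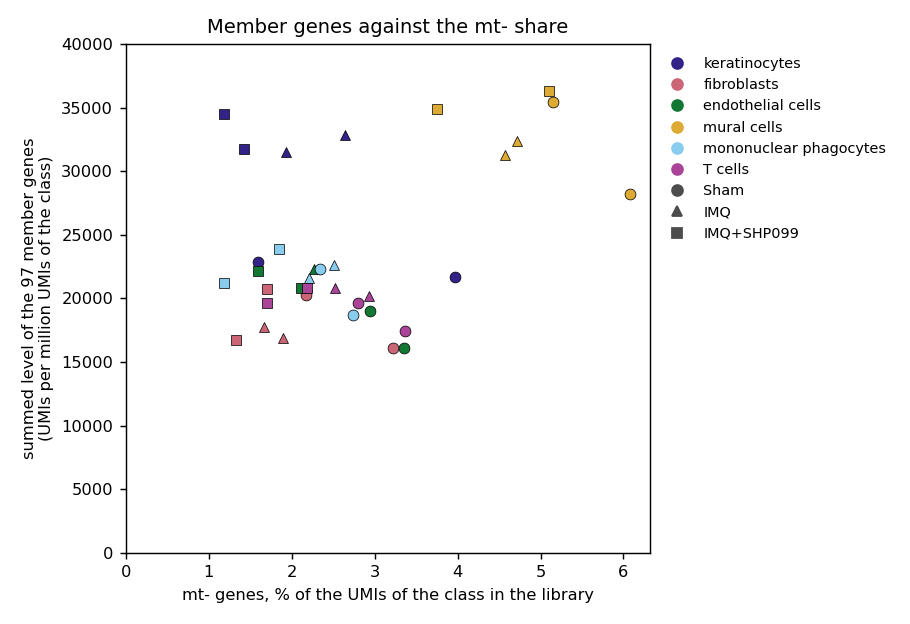
Summed level of the 97 members (vertical axis, CPM within the class) against the mt- share of UMIs (horizontal axis, %), with a point for each of 6 cell classes in each of 6 libraries. Mural cells lie high on both axes, whereas IMQ and IMQ+SHP099 keratinocytes lie high in members at mt- shares of 1.18% to 2.64%.

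Other genes of mitochondrial energy metabolism were read from lists of known pathway members in keratinocytes, IMQ against Sham. The share of all genes called there was 5.46% higher and 7.7% lower. The lists were chosen with earlier results of these data known, so the counts from them are descriptions. Of 20 listed proteins of the large mitochondrial ribosomal subunit 8 were called higher and none lower, with a median log2 change of 0.96, among them Mrpl12 (1.40 ± 0.34), Mrpl34 (1.33 ± 0.28) and Mrpl28 (1.23 ± 0.34). Of 37 electron carriers and assembly factors not among the members, 3 were called higher, a share near that of all genes, and none lower (median 0.53): Cyc1, the cytochrome c1 subunit of complex III (1.52 ± 0.32), Cycs, cytochrome c (1.34 ± 0.35), and Cox11 (1.20 ± 0.24). Of 16 genes of the tricarboxylic acid cycle 1 was called higher, again near the share of all genes, and none lower (median 0.51): Suclg1, a subunit of succinate-CoA ligase (1.30 ± 0.30). Of 16 regulators of mitochondrial biogenesis, Ppard was higher (1.5 ± 0.23), Ppara was lower (-3.03 ± 0.45) and the median was 0.10. In that list Nrf1, at 17.0 and 27.7 CPM in Sham and 15.0 and 15.5 in IMQ, was not called (-0.23 ± 0.22, adjusted p = 0.520), nor were Tfam and Ppargc1a.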

How the data were processed

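Dorsal skin cells of 6 libraries were counted by the authors with Cell Ranger (10x Genomics 3′ chemistry, GRCm38/mm10), and the deposited counts are UMIs per gene and barcode, not normalized. Barcodes were kept under 100000 UMIs, 6500 genes and 10% mt- UMIs, the study's limits. No doublet caller was run; the gate left out cells without a clear lead of 1 class. A cell joined the class with the highest marker score if it passed 0.2 and led the next class by 0.1 (0.3 in the stricter gate). UMIs were summed per class and library for 6 classes, and tested with edgeR 4.0.16 (TMM, filterByExpr, quasi-likelihood F test, Benjamini-Hochberg at 0.05, R 4.3.3). Group fits held the 3 groups of a class, class and interaction fits the 6 classes with library as a term. DESeq2 1.42.0, other scalings, filters, gates and each library left out were alternatives. The scripts were tested on simulated data.

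Reads that match several genes are not counted by Cell Ranger, so members with close copies may be undercounted. Named genes were fixed core subunits and isoforms, up to 5 members a direction per class and contrast with an adjusted p under 0.05, at least 20 CPM (UMIs per 1000000 of the class) and no overlap between libraries (the 2 with the smallest p where none passed), and up to 3 a direction between classes with 1 sign in all 6 libraries. Atp5k, Ndufa5, Ndufaf5, Uqcr10 and the other genes of short lists of calls are named beyond that rule, after their values were seen. Members and lists were chosen with earlier results of these data known. Coordinates are from GENCODE vM21 and promoter sequences from RefSeq (GRCm38.p6). Levels cover 3′ UMIs and are not compared between genes.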

Additional observations from a re-analysis of the deposited data

Results flagged for a closer look

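The change of the respiratory chain members from Sham to IMQ differed between cell classes by a test of the difference itself. The direction was not particular to keratinocytes, where the fitted change was above 0 for 86 of 92 members (45.9% of all genes). It was above 0 for 84 of 91 in endothelial cells (48.2%) and 82 of 87 in T cells (47.4%). Mural cells had 76 of 92 (46.2%), mononuclear phagocytes 69 of 91 (47.9%) and fibroblasts 50 of 93 (49.5%). In the edgeR interaction, 19 of 92 members changed more in keratinocytes than over the other 5 classes, against 3.22% of all genes in that direction, with Ndufa4 (1.63 ± 0.26 on the log2 scale), Uqcr10 (1.16 ± 0.19) and Sdhd (1.13 ± 0.20) at the smallest adjusted p. Ndufa4 stood at 1352 and 1229 CPM in IMQ keratinocytes against 481 and 399 in Sham, while in fibroblasts it stood at 349 and 366 against 394 and 286. The count was 51 by DESeq2, and 0 when either IMQ library was left out.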

How the results depend on the processing

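Of 35 counts and summed levels, 15 kept their direction and stayed within 1.5 times or within 1 SD under every alternative run, and none of these was reversed. Of 1088 alternative values of named members, 992 kept their direction and their side of the threshold. The alternatives without a TMM factor, with cycling cells left out, and all alternatives for the interaction, for the 2 keratinocyte layers and for IMQ+SHP099 against Sham were chosen after seeing the data. Why counts moved was not tested. Counts of members called under an alternative, here and above, are given without the share of all genes called under it. A larger or smaller count is therefore not read as a stronger or weaker result about the members.

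For IMQ against Sham in keratinocytes the 8 called members became 42 with DESeq2, 13 with no filter on low counts, 15 with a stricter gate, and 0 to 15 with a library left out. In basal keratinocytes the 15 became 25 with library totals only, 48 with DESeq2, 25 with no filter, 3 with cycling cells left out and 0 to 47 with a library left out. In suprabasal keratinocytes the 2 became 23 with DESeq2, 14 with a stricter gate, and 0 to 8 with a library left out. For IMQ+SHP099 against Sham the 16 in keratinocytes became 54 with DESeq2, 33 with no filter, 30 with a stricter gate, and 0 to 35 with a library left out. The interaction's 19 became 51 with DESeq2 and 0 to 25 with a library left out.

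In classes with 0 members called between IMQ and Sham, no filter on low counts gave 2 in fibroblasts, 2 in endothelial cells, 1 in mononuclear phagocytes and 1 in T cells. DESeq2 gave 1 in mononuclear phagocytes and 1 in T cells, and leaving out a library gave 0 to 2 in endothelial cells and 0 to 2 in mural cells. Between IMQ+SHP099 and IMQ, no filter gave 1 in T cells. Between classes, endothelial cells had 47 called in place of 73 and suprabasal against basal keratinocytes 57 in place of 24 with library totals only, and mural cells 48 in place of 73 under the mitochondrial limit of 5%.

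The log2 ratio of summed levels between IMQ and Sham in keratinocytes was 0.43 with cycling cells left out in place of 0.53. In mural cells it was 0.26 under the mitochondrial limit of 5% in place of -0.00. With a library left out it ran from -0.22 to 0.11 in fibroblasts, from -0.16 to 0.17 in mural cells and from -0.011 to 0.24 in mononuclear phagocytes. Between IMQ+SHP099 and IMQ it ran from -0.053 to 0.26 in fibroblasts, and in T cells a stricter gate gave -0.076 in place of -0.021. With TMM factors the keratinocyte ratio was 0.78 and with DESeq2's size factors 0.82. Removing TMM moved the median of all genes in keratinocytes from -0.08 to -0.38.

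The direction turned for 3 members that were not called. Cox4i2 went from -0.13 to 0.93 with a stricter gate, 0.10 with cycling cells left out and -0.90 to 1.65 with a library left out. Cox7a1 went from -0.69 to 0.52 with a stricter gate and -1.51 to 1.37 with a library left out, and Cox7a2l from 0.12 to -0.19 with library totals only.

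With the replicate number as a block, 28 members were called in keratinocytes, 40 in basal and 9 in suprabasal keratinocytes and 1 in T cells for IMQ against Sham, and 46 in keratinocytes for IMQ+SHP099 against Sham; the block changed no other count. Deviations of same-numbered libraries in keratinocytes correlated at 0.0967, 0.0107 and 0.208 across genes in the 3 pairs of groups. The correlations were 0.27, 0.19 and 0.391 in mononuclear phagocytes and 0.195, 0.187 and 0.369 in T cells, and between -0.0481 and 0.139 in the other 3 classes. Nothing in the labels says that a number marks a shared batch, and with only 2 numbers whether they pair the libraries was not settled.

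With 2 libraries a group, leaving 1 out leaves a group whose lone library is assumed to vary like the others. Neutrophils, with 4 cells in the smallest library, and the rarer classes were not tested.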
